A study of Mus musculus with 22 samples.

Results

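The nuclear lamina is a meshwork of A-type and B-type lamins under the inner nuclear membrane that holds the nucleus in shape and anchors silent chromatin. Loss of lamin B1 is a widely used mark of senescent cells, in which chromatin detaches from the lamina and the high mobility group (HMG) proteins, small abundant proteins that bend or bind DNA, are redistributed or lost. Proteins of silent chromatin belong to the same picture, among them heterochromatin protein 1 (HP1) and the Polycomb methyltransferase EZH2, which keeps the *Cdkn2a* locus silent in dividing fibroblasts. The 10 genes described here were taken as a named list, by no rule on their measured values. The list was chosen with earlier results of these data known. It holds the lamins *Lmna*, *Lmnb1* and *Lmnb2*, the lamin B receptor *Lbr*, the HMG genes *Hmgb1*, *Hmgb2*, *Hmga1* and *Hmga2*, the HP1α gene *Cbx5*, and *Ezh2*. They are 10 of the 55401 gene identifiers in the count table, and all 10 were counted in all 22 libraries and passed the filter on low counts in both sets of cells, with the fewest counts, 46, for *Lmnb1*.

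The libraries came from mouse embryonic fibroblasts (MEFs), primary cells that were grown from the embryo without its head and viscera and that stop dividing and become senescent when passaged serially in atmospheric oxygen. In the *S6K1* set, 4 libraries of early WT MEFs (passage 3), 4 of late WT MEFs (passage 8) and 3 of late MEFs lacking *S6K1* (KO, passage 8) were sequenced. In the *S6K1/S6K2* set there were 4 libraries of early WT MEFs (passage 3), 4 of late WT MEFs (passage 8) and 3 of late MEFs lacking both kinases (DKO, passage 8). The 3 groups of a set address whether the genes change with passage in WT cells, and whether loss of the kinases changes their level in late cells. Late KO or DKO MEFs were also set against early WT MEFs, a comparison that changes passage and genotype together and shares its libraries with the others. Per the methods of the study, *S6K1* KO MEFs had WT littermates, whereas DKO MEFs came from parents that all lacked *S6K2* and their WT MEFs from other mothers, so that genotype and litter cannot be told apart in the *S6K1/S6K2* set. No label names a mother, so *P* values measure the spread between libraries.

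Total counts were 10742454 to 17314832 per library, at which 3 counts correspond to 0.173 to 0.279 CPM (the count of a gene relative to the total of its library), a limit that covers counting error only. Levels are given as CPM scaled by edgeR's TMM method over all 22 libraries. Differences are given as log2 fold changes (log2 FC) ± their standard error, and *P* values are adjusted over all genes tested (14132 in the *S6K1* set and 14365 in the other), with a threshold of 0.05. The targeted genes were lower in the mutant libraries. *Rps6kb1*, which encodes S6K1, was at 14.2 to 23.0 CPM in the late KO and 55.6 to 75.3 CPM in the late WT libraries of the *S6K1* set. In the other set it was at 20.4 to 28.3 CPM in the late DKO and 64.6 to 87.5 CPM in the late WT libraries. The deleted part of the gene is not given in the sources used here, so these counts do not say how much intact transcript was left. *Rps6kb2*, which encodes S6K2, was at 0.484 to 1.36 CPM in the late DKO and 11.2 to 16.4 CPM in the late WT libraries. *Cdkn2a*, the senescence locus of p16 and p19ARF, was higher in all late than in all early libraries of its set. Summed levels of 10 fibroblast markers were 28781 to 36501 CPM in early WT, 19398 to 25947 CPM in late WT and 24106 to 26024 CPM in late KO libraries. In the other set these sums were 30337 to 39307 CPM (early WT), 19622 to 26596 CPM (late WT) and 25032 to 27912 CPM (late DKO). These sums were thus lower in all late than in all early libraries of their set, but most single markers were not called. Of the 10 markers, 2 were called lower and none higher with passage in WT cells of each set (5.97% and 4.89% of all genes were called lower). Against early WT cells, 3 were lower and none higher in late KO, and 2 lower and 2 higher in late DKO cells (5.24% and 8.92% of all genes were called lower). Epithelial and mesothelial markers (7 genes) summed to 56.0 to 118 CPM in early and 12.9 to 40.6 CPM in late libraries, and 3 of the 5 tested fell with passage in WT cells of each set. Summed levels of 19 macrophage markers were 510 to 1156 CPM in early WT, 5655 to 11770 CPM in late WT and 3824 to 5157 CPM in late KO libraries of the *S6K1* set. The corresponding sums of the *S6K1/S6K2* set were 631 to 2132 CPM (early WT), 7876 to 13452 CPM (late WT) and 994 to 3661 CPM (late DKO). Of the 19, all were called higher with passage in WT cells of the *S6K1* set and 18 in the other set, and 17 were called lower in late DKO than in late WT cells. None was at 0 in all libraries of any group. In such bulk libraries, fewer cells of a type and less RNA per cell cannot be told apart, and the part of these other cells in the results below was not tested.

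Early WT libraries 2 and 4 of the *S6K1* set stood apart from the other 20 libraries over all genes, at −43.9 and −47.6 on the second principal component, where the others lay between −16.1 and 19.2. They are also the early libraries of that set in which the 4 Y-linked genes *Ddx3y*, *Eif2s3y*, *Kdm5d* and *Uty* summed to less than 1 CPM, against 206 and 240 CPM in libraries 1 and 3. All 3 late KO libraries carried Y-linked transcripts, as did 1 of the 4 late WT libraries, library 3. Of the *S6K1/S6K2* set, 2 of 4 early WT, 3 of 4 late WT and 1 of 3 late DKO libraries carried them. Early WT libraries 1 and 4 of that set, without them, lay at 19.2 and 13.1 on the second principal component. Its early WT libraries 2 and 3, with them, lay at 17.4 and 9.09. What set libraries 2 and 4 of the *S6K1* set apart was not tested. With the Y-linked genes as a covariate, 3 of the 4 calls between late DKO and late WT MEFs held, and all 6 between late DKO and early WT MEFs passed. Calls of the *S6K1* set against early WT MEFs are therefore given with and without early WT libraries 2 and 4.

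**Figure D1:**
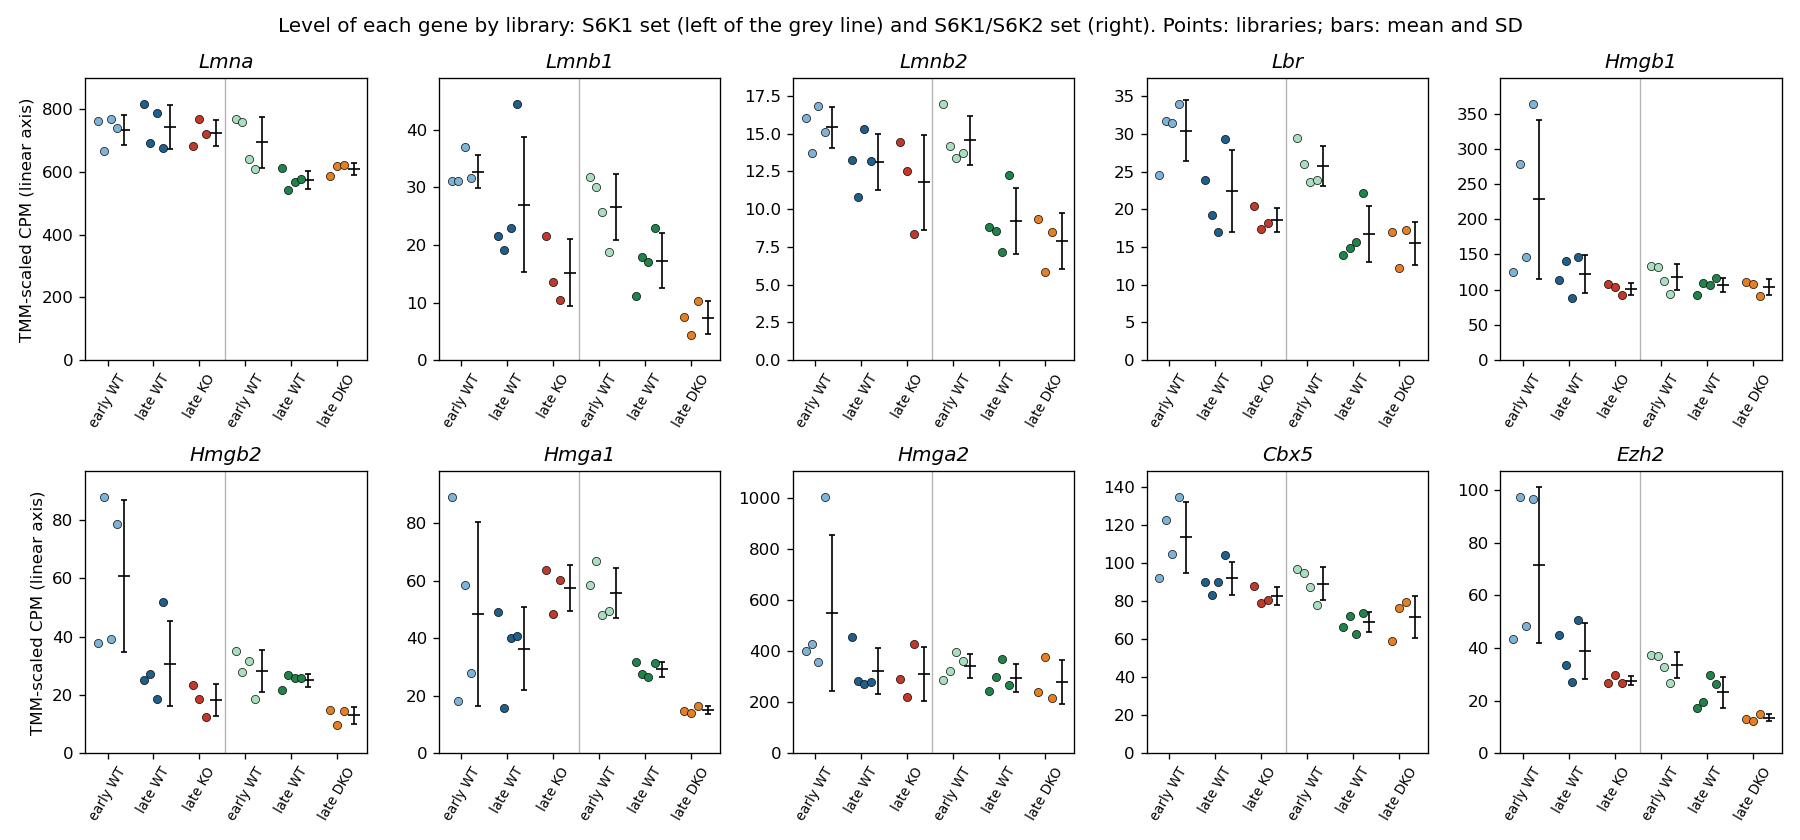
Levels of the 10 genes in the 22 libraries. Each panel plots 1 gene, with the 6 groups on the x axis (the *S6K1* set to the left of the grey line, the *S6K1/S6K2* set to its right) and TMM-scaled CPM on a linear y axis from 0; points are libraries, and bars are the mean and SD of a group. *Lmnb1*, *Hmgb2*, *Hmga1* and *Ezh2* of the 3 late DKO libraries lie below those of all 4 late WT libraries, whereas *Lmna* differs little between groups.

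Per kilobase of exon, *Lmna* was the most abundant of the 10 genes in every group and *Lmnb2* the least abundant. The length used was that of all annotated exons of a gene together, from 1.99 kb for *Hmga1* to 9.01 kb for *Cbx5*. It is not that of the transcripts expressed, and the order and ratios between genes depend on it. In early WT MEFs of the *S6K1/S6K2* set, *Lmna* was at 163 ± 19.2 CPM per kb, *Hmga2* at 50.7 ± 7.06, *Hmga1* at 28.0 ± 4.43 and *Hmgb1* at 23.9 ± 3.76 CPM per kb. Below them came *Hmgb2* at 10.5 ± 2.64, *Cbx5* at 9.92 ± 0.952, *Lmnb1* at 8.98 ± 1.96, *Lbr* at 7.24 ± 0.755, *Ezh2* at 5.40 ± 0.793 and *Lmnb2* at 3.40 ± 0.382 CPM per kb (SD, n = 4 each). *Lmna* and *Hmga2* stood clear of the gene below them in every library, and so did *Hmgb1* of *Hmgb2*. The neighbours *Hmga1* and *Hmgb1* overlapped, as did *Hmgb2*, *Cbx5* and *Lmnb1*, and *Lmnb1* and *Lbr*. In late DKO MEFs the order changed below *Hmga2*, with *Hmgb1* at 20.9 ± 2.24, *Cbx5* at 7.97 ± 1.24, and *Hmga1* at 7.55 ± 0.661 CPM per kb. Then followed *Hmgb2* at 4.84 ± 1.08, *Lbr* at 4.36 ± 0.798, *Lmnb1* at 2.49 ± 0.980, *Ezh2* at 2.16 ± 0.210 and *Lmnb2* at 1.84 ± 0.432 CPM per kb (SD, n = 3 each). By its group mean, *Hmga1* was above *Hmgb1* and *Cbx5* in early WT and below both in late DKO MEFs.

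No gene of the list was called higher in any of the 6 comparisons within a set. With passage in WT cells of the *S6K1* set none of the 10 passed (12.9% of all genes tested passed, edgeR). Of them 6 had an unadjusted *P* value under 0.05 (27.6% of all genes), all lower in late cells, and DESeq2 called 3 (18.8% of all genes). None passed between late KO and late WT MEFs either (0.0425% of all genes), with 1 at an unadjusted *P* value under 0.05 (10.6% of all genes) and 0 by DESeq2 (1.88% of all genes). Between late KO and early WT MEFs 5 passed, all lower (5.24% of all genes were called lower). None of these calls held without early WT libraries 2 and 4 (3.61% of all genes passed). Without any 1 library there were 0 to 6 (3.72% to 14.6% of all genes passed). Among WT cells of the *S6K1/S6K2* set, 2 genes were lower in late than in early ones (4.89% of all genes called lower). There 4 were lower in late DKO than in late WT MEFs (3.95%) and 6 were lower in late DKO than in early WT cells (8.92%). The median log2 FC of the 10 genes was −0.43, −0.21 and −0.77 in these comparisons of the *S6K1* set, in that order, and −0.43, −0.18 and −0.79 in those of the *S6K1/S6K2* set, beside −0.04 to 0.01 for all genes tested.

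**Figure D2:**
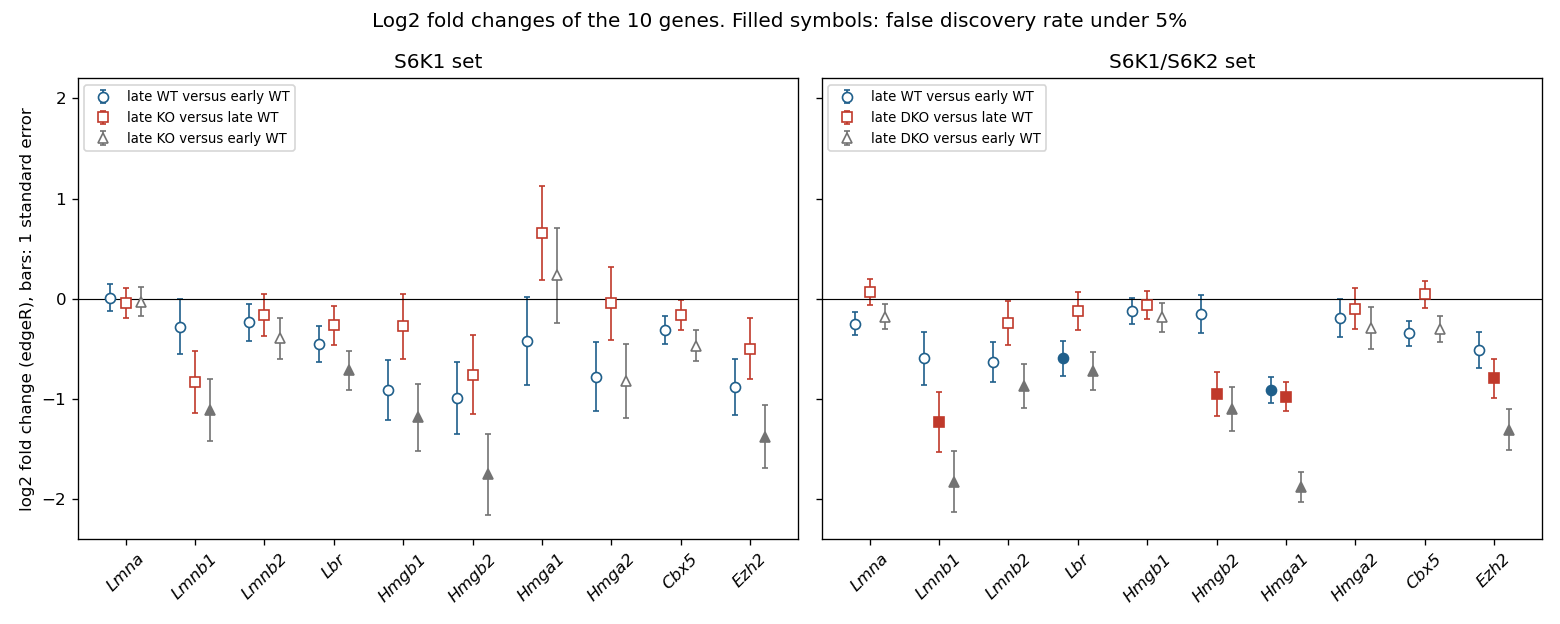
Log2 fold changes of the 10 genes in the 6 comparisons within the MEF sets. The x axis gives the gene and the y axis the log2 FC from edgeR, with bars of 1 standard error; circles compare late with early WT, squares late KO or DKO with late WT, triangles late KO or DKO with early WT MEFs, and filled symbols mark an adjusted *P* value under 0.05. Filled symbols all lie below 0, and in the right panel *Hmga1* is filled in all 3 comparisons.

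*Lmna* (ENSMUSG00000028063.15; chromosome 3, 88481148 to 88509932, mouse build GRCm38.p6) encodes lamins A and C, the A-type lamins of differentiated cells. It was at 761, 666, 770.2 and 739.7 CPM in early WT and 817, 691, 787 and 676 CPM in late WT libraries of the *S6K1* set. *Lmna* in late KO libraries was at 684, 768 and 719.6 CPM. In the *S6K1/S6K2* set it was at 769, 760.4, 642.5 and 608 CPM in early WT and 612, 542, 566 and 577 CPM in late WT libraries. *Lmna* in late DKO libraries was at 587, 618 and 622 CPM. The groups overlapped in every comparison, and none passed the test. The log2 FC of late KO against late WT was −0.04 (2 standard errors either side, −0.33 to 0.25) and that of late DKO against late WT 0.07 (−0.18 to 0.32). The value farthest from 0 was −0.25 ± 0.12 (edgeR adjusted *P* = 0.174), with passage in WT cells of the *S6K1/S6K2* set.

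*Lmnb1* (ENSMUSG00000024590.8) encodes lamin B1, a B-type lamin that stays attached to the membrane. In the *S6K1/S6K2* set it was at 31.8, 30.0, 25.7 and 18.8 CPM in early WT and 11.2, 18.0, 17.0 and 22.9 CPM in late WT libraries. *Lmnb1* in late DKO libraries was at 7.43, 4.45 and 10.3 CPM. All 3 late DKO libraries were below all late WT and all early WT libraries, whereas the WT groups overlapped through early library 4 and late library 4. *Lmnb1* was 2.34-fold lower in late DKO than in late WT MEFs (log2 FC −1.23 ± 0.30, edgeR adjusted *P* = 0.0399) and 3.53-fold lower than in early WT MEFs (log2 FC −1.82 ± 0.31, edgeR adjusted *P* = 0.00266). The first call was close to the threshold: it was lost in 9 of the 11 fits without 1 library of the set, with log2 fold changes of −1.55 to −0.96 and adjusted *P* values of up to 0.169, and held without early WT library 4 or late WT library 1. The second held in all 11. With passage in WT cells the log2 FC was −0.59 ± 0.26 (edgeR adjusted *P* = 0.149).

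In the *S6K1* set, *Lmnb1* was at 31.0, 31.1, 37.0 and 31.7 CPM in early WT and 21.6, 19.1, 22.9 and 44.5 CPM in late WT libraries. *Lmnb1* in late KO libraries was at 21.6, 13.6 and 10.4 CPM. The early libraries were close together, without the split seen in other genes, and 3 of the 4 late WT libraries were below all of them, while late WT library 4 was above. All late KO libraries were below all early WT libraries (log2 FC −1.11 ± 0.31, edgeR adjusted *P* = 0.0381). That call was lost in 6 of the 11 fits without 1 library, namely early WT 2, 3 or 4, late WT 3 and late KO 2 or 3, with adjusted *P* values of up to 0.151. Without early WT libraries 2 and 4 the log2 FC was −1.16 (edgeR adjusted *P* = 0.121). Between late KO and late WT MEFs it was −0.83 ± 0.30 (unadjusted *P* = 0.0184, edgeR adjusted *P* = 0.362), and the late KO libraries overlapped with late WT library 2. Within each library, *Lmna* per kb was 14.5 to 17.1 times *Lmnb1* per kb in early WT, 10.6 to 26.3 times in late WT and 22.1 to 48.0 times in late KO libraries. The ratio in the *S6K1/S6K2* set was 16.8 to 22.5 times (early WT), 17.6 to 38.0 times (late WT) and 42.2 to 96.7 times (late DKO). This ratio needs no scaling between libraries, and its late DKO values lay above all 8 WT libraries of their set.

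*Lmnb2* (ENSMUSG00000062075.13; chromosome 10, 80901363 to 80918245), the gene of the other B-type lamin, was at 17.0, 14.2, 13.4 and 13.7 CPM in early WT and 8.81, 8.57, 7.14 and 12.3 CPM in late WT libraries of the *S6K1/S6K2* set. *Lmnb2* in late DKO libraries was at 9.37, 5.81 and 8.47 CPM. All late libraries of this set, WT and DKO, were below all early ones, and the late groups overlapped. The difference missed the threshold with passage in WT cells (log2 FC −0.63 ± 0.20, edgeR adjusted *P* = 0.0559) and passed between late DKO and early WT MEFs (log2 FC −0.87 ± 0.22, edgeR adjusted *P* = 0.0198), where it was lost without early WT library 1 or late DKO library 2 (adjusted *P* of up to 0.0866). In the *S6K1* set no comparison of *Lmnb2* passed, with 16.0, 13.7, 16.8 and 15.1 CPM in early WT and 13.2, 10.8, 15.3 and 13.2 CPM in late WT libraries. *Lmnb2* in late KO libraries was at 14.4, 12.5 and 8.33 CPM. Without early WT libraries 2 and 4 none passed either.

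*Lbr* (ENSMUSG00000004880.11; chromosome 1, 181815315 to 181842401) encodes the lamin B receptor, a sterol reductase of the inner nuclear membrane that tethers heterochromatin to the lamina. It was at 29.4, 26.0, 23.6 and 23.9 CPM in early WT and 13.9, 14.9, 15.7 and 22.2 CPM in late WT libraries of the *S6K1/S6K2* set. *Lbr* in late DKO libraries was at 17.0, 12.2 and 17.2 CPM. Again all late libraries were below all early ones, and late DKO MEFs overlapped with late WT MEFs. *Lbr* fell with passage in WT MEFs of this set (log2 FC −0.59 ± 0.17, edgeR adjusted *P* = 0.0409), a call lost without any of early WT 1, 2 or 3 or late WT 1, 2 or 3 (adjusted *P* of up to 0.113). It was also lower in late DKO than in early WT MEFs (log2 FC −0.72 ± 0.19, edgeR adjusted *P* = 0.0229), lost without early WT 1 or 2 or late DKO 2 (adjusted *P* of up to 0.103). In the *S6K1* set it was at 24.6, 31.7, 31.4 and 33.9 CPM in early WT and 23.8, 19.3, 17.0 and 29.4 CPM in late WT libraries. *Lbr* in late KO libraries was at 20.4, 17.3 and 18.2 CPM. There it was lower in late KO than in early WT MEFs (log2 FC −0.71 ± 0.19, edgeR adjusted *P* = 0.0369). This call was lost without any of early WT 2, 3 or 4 or any late KO library (adjusted *P* of up to 0.134), and the value was −0.59 without early WT libraries 2 and 4 (edgeR adjusted *P* = 0.165).

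*Hmgb1* (ENSMUSG00000066551.12; chromosome 5, 149046702 to 149053057) and *Hmgb2* (ENSMUSG00000054717.7; chromosome 8, 57511843 to 57515999) encode abundant proteins with tandem HMG boxes that bend DNA, of which HMGB1 is released from senescent cells as an alarmin and HMGB2 marks dividing cells. *Ezh2* (ENSMUSG00000029687.16; chromosome 6, 47530274 to 47595270) encodes the methyltransferase of Polycomb repressive complex 2. In all 3, early WT libraries 2 and 4 of the *S6K1* set were above libraries 1 and 3, an order also found in *Lbr*, *Hmga2* and *Cbx5*. A sequence feature that the choice of genes did not use is the CCAAT box, a short element bound by the factor NF-Y and common in genes of dividing cells. The 100 bases before the listed start of 5 of the genes are printed 5′ to 3′ (RefSeq, GRCm38.p6), with CCAAT or its reverse complement ATTGG in capitals, *Lbr* for the same boxes and *Hmga1* for a promoter without one:
Hmgb2, chr8:57511743-57511842, plus strand: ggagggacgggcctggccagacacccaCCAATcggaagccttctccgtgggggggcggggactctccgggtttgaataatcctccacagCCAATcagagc
Ezh2, chr6:47595031-47595130, minus strand: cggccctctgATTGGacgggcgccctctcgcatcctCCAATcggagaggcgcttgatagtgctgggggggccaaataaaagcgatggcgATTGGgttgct
Hmgb1, chr5:149053058-149053157, minus strand: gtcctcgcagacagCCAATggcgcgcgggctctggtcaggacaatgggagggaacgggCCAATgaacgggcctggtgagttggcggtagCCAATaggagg
Lbr, chr1:181842402-181842501, minus strand: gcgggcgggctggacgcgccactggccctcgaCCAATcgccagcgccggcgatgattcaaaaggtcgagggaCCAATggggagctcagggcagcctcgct
Hmga1, chr17:27556474-27556573, plus strand: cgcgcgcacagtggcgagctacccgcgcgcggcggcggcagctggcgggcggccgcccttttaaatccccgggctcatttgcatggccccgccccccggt

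Over windows of 300 bases (250 before and 50 after a start), CCAAT on either strand occurred 4 times in *Hmgb2*, 3 times in *Ezh2*, 3 times at this start of *Hmgb1* (its other listed start held none) and 2 times in *Lbr*. It occurred 1 time at 1 of the starts of *Cbx5* and of *Lmna*, and not in *Hmga1*, *Hmga2* or *Lmnb2*. Of all 32851 promoters in the table, 37.4% held at least 1, 11.7% at least 2, 3.37% at least 3 and 1.06% at least 4. The element TTTGAA (the CHR of cell cycle genes, on either strand) occurred 2 times in *Hmgb2* and 1 time in *Lbr* (17.9% of all promoters held at least 1). GGGCGG, the GC box, occurred 4 times in *Hmga1* and 4 times at the other listed start of *Hmgb1* (5.49% of all promoters held at least 4). It occurred 3 times at 1 start of *Cbx5* and 2 times in *Lbr*. *Hmgb2*, *Hmga2* and 1 start each of *Lmna* and *Lmnb2* held it 1 time. GC boxes were also sought on either strand. An E2F element (TTTCCCGC, TTTGGCGC, TTTCGCGC or TTTGCCGC, on either strand) occurred 1 time, in *Ezh2* just after its start (2.26% of all promoters). Promoters of 9 of the 10 genes were matched by symbol. These matches describe sequence only, and the order of the early libraries was found in genes with and without a CCAAT box.

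*Hmgb1* was at 125, 279, 146 and 364 CPM in early WT and 114, 141, 88.6 and 146 CPM in late WT libraries of the *S6K1* set. *Hmgb1* in late KO libraries was at 107, 104 and 92.0 CPM. *Hmgb2* was at 37.8, 87.9, 39.2 and 78.6 CPM in early WT and 25.2, 27.2, 18.6 and 51.9 CPM in late WT libraries. *Hmgb2* in late KO libraries was at 23.3, 18.7 and 12.4 CPM. *Ezh2* was at 43.3, 97.4, 48.2 and 96.7 CPM in early WT and 44.9, 33.3, 27.2 and 50.5 CPM in late WT libraries. *Ezh2* in late KO libraries was at 26.7, 29.6 and 26.6 CPM. In each of the 3 genes the late KO libraries were below all early libraries.

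With passage in these WT cells the log2 FC was −0.91 ± 0.30 for *Hmgb1*, −0.99 ± 0.36 for *Hmgb2* and −0.88 ± 0.28 for *Ezh2* (edgeR adjusted *P* of 0.0682, 0.0907 and 0.0593). All 3 missed the threshold, and DESeq2, the fit on all 6 groups and the fit with the Y-linked genes as a covariate placed them past it. Without early libraries 2 and 4 they were −0.15, −0.33 and −0.24 (edgeR adjusted *P* of 0.637, 0.588 and 0.511). All 3 were lower in late KO than in early WT MEFs, with a log2 FC of −1.18 ± 0.33 for *Hmgb1*, −1.75 ± 0.41 for *Hmgb2* and −1.37 ± 0.31 for *Ezh2* (edgeR adjusted *P* of 0.0413, 0.0184 and 0.0169). Without the same libraries the values were −0.43, −1.09 and −0.73 (edgeR adjusted *P* of 0.253, 0.146 and 0.107). *Hmgb1* lost its call in 8 of the 11 fits without 1 library (all but early WT 1 or 3 and late WT 3). *Hmgb2* lost it without early WT 2 or late KO 2 or 3, and *Ezh2* without any late KO library, with adjusted *P* values of up to 0.142, 0.0901 and 0.0736.

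Between late KO and late WT MEFs none of these genes passed (log2 fold changes of −0.27, −0.76 and −0.50, adjusted *P* of 0.807, 0.54 and 0.604, edgeR). The late WT library that carries Y-linked transcripts, library 3, was the lowest of the late WT libraries in all 3 genes, at 88.6, 18.6 and 27.2 CPM, and lay below or within the range of the late KO libraries, all of which carry them. With the Y-linked genes as a covariate, the log2 fold changes were 0.44, 0.07 and 0.20. That covariate nearly coincides with genotype among these late libraries and cannot be told apart from it. For *Lmnb1* the same late WT library, at 22.9 CPM, was above all late KO libraries, and the log2 FC with the covariate was −0.77 (edgeR adjusted *P* = 0.376). In the *S6K1/S6K2* set, late WT library 4 did not carry Y-linked transcripts. Its *Hmgb1*, *Hmgb2* and *Ezh2* were at 117, 25.8 and 26.2 CPM. In late WT libraries 1 to 3 of that set they were at 92.8 to 109.8, 21.6 to 26.7 and 17.1 to 29.5 CPM. What sets the order of these libraries was not tested.

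**Figure D3:**
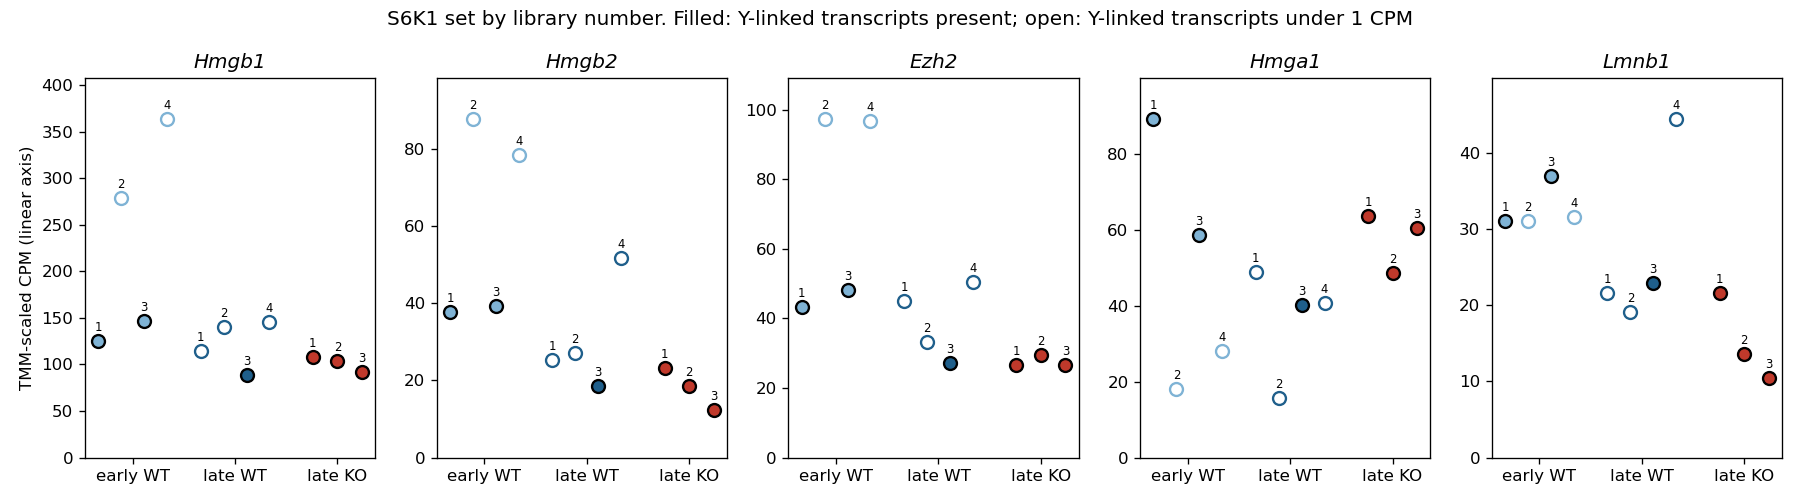
Levels of 5 genes in the 11 libraries of the *S6K1* set. The x axis gives the group and the y axis TMM-scaled CPM on a linear scale from 0; each point is a library with its number, filled where Y-linked transcripts were present and open where they summed to less than 1 CPM. The open early WT libraries 2 and 4 are high in *Hmgb1*, *Hmgb2* and *Ezh2*, low in *Hmga1* and close to the others in *Lmnb1*.

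In the *S6K1/S6K2* set these 3 genes separated from each other. *Hmgb1* was at 134, 132, 113 and 94.4 CPM in early WT and 92.8, 109.8, 107 and 117 CPM in late WT libraries. *Hmgb1* in late DKO libraries was at 112, 108 and 90.8 CPM. Its groups overlapped in every comparison, and the log2 FC between late DKO and late WT MEFs was −0.06 (2 standard errors either side, −0.35 to 0.23). *Hmgb2* was at 35.1, 27.7, 31.5 and 18.6 CPM in early WT and 21.6, 26.7, 25.7 and 25.8 CPM in late WT libraries. *Hmgb2* in late DKO libraries was at 14.9, 9.68 and 14.5 CPM. It overlapped between the WT groups (log2 FC −0.15, edgeR adjusted *P* = 0.631), and all late DKO libraries were below all WT libraries of the set.

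*Hmgb2* was 1.93-fold lower in late DKO than in late WT MEFs (log2 FC −0.95 ± 0.22, edgeR adjusted *P* = 0.0281), a call that held in 6 of the 11 fits without 1 library and was lost without late WT 2, 3 or 4 or late DKO 2 or 3 (adjusted *P* of up to 0.15). Against early WT MEFs it was 2.14-fold lower (log2 FC −1.10 ± 0.22, edgeR adjusted *P* = 0.0062), which held in all 11. *Ezh2* was at 37.4, 36.8, 32.8 and 26.7 CPM in early WT and 17.1, 19.4, 29.5 and 26.2 CPM in late WT libraries. *Ezh2* in late DKO libraries was at 13.1, 12.3 and 14.8 CPM. The late DKO libraries were below all WT libraries, and the WT groups overlapped through late WT library 3 and early WT library 4. *Ezh2* was 1.73-fold lower in late DKO than in late WT MEFs (log2 FC −0.79 ± 0.20, edgeR adjusted *P* = 0.0428), a call lost in 9 of the 11 fits without 1 library (adjusted *P* of up to 0.198) and kept without early WT 4 or late WT 1. It was also lost with the Y-linked genes as a covariate (log2 FC −0.83, edgeR adjusted *P* = 0.0589). It was 2.47-fold lower than in early WT MEFs (log2 FC −1.30 ± 0.20, edgeR adjusted *P* = 0.00169), which held in all 11.

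*Hmga1* (ENSMUSG00000046711.16; chromosome 17, 27556574 to 27563672) and *Hmga2* (ENSMUSG00000056758.14; chromosome 10, 120361268 to 120476469) encode AT-hook proteins that bind the minor groove of AT-rich DNA and are part of the heterochromatin foci of senescent human fibroblasts. *Hmga1* was the gene of the list that changed most clearly in the *S6K1/S6K2* set. It was at 58.7, 67.0, 47.9 and 49.6 CPM in early WT and 31.7, 27.4, 26.5 and 31.2 CPM in late WT libraries. *Hmga1* in late DKO libraries was at 14.8, 13.8 and 16.4 CPM. The 3 groups formed 3 steps without overlap. *Hmga1* fell 1.87-fold with passage in WT cells (log2 FC −0.90 ± 0.13, edgeR adjusted *P* = 0.00131). It was 1.96-fold lower in late DKO than in late WT MEFs (log2 FC −0.97 ± 0.15, edgeR adjusted *P* = 0.00511) and 3.67-fold lower in late DKO than in early WT MEFs (log2 FC −1.88 ± 0.15, edgeR adjusted *P* = 6.15e-05). Each of these calls held in all 11 fits without 1 library, and the first 2 were lost in the fit that pools the spread of all 6 groups (edgeR adjusted *P* of 0.0827 and 0.204).

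In the *S6K1* set *Hmga1* was at 89.2, 18.2, 58.6 and 28.1 CPM in early WT and 49.0, 15.7, 40.2 and 40.7 CPM in late WT libraries. *Hmga1* in late KO libraries was at 63.7, 48.5 and 60.5 CPM. Early libraries 2 and 4 were low where *Hmgb1*, *Hmgb2* and *Ezh2* were high, so that the early group spanned all late KO libraries and all late WT libraries but library 2, and no comparison passed. Late KO libraries overlapped with late WT library 1 (log2 FC 0.66 ± 0.47, edgeR adjusted *P* = 0.672; −0.22 with the Y-linked genes as a covariate), and without early libraries 2 and 4 the log2 FC with passage in WT cells was −1.02 (edgeR adjusted *P* = 0.0967). The effect of genotype on *Hmga1* differed by −1.62 between the sets (DKO minus KO, standard error 0.54, unadjusted *P* = 0.0069, adjusted *P* = 0.307, edgeR interaction term), which did not pass.

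*Hmga2*, an embryonic gene that the let-7 microRNA holds down, was at 401, 428, 359 and 1006 CPM in early WT and 457, 281, 272 and 278 CPM in late WT libraries of the *S6K1* set. *Hmga2* in late KO libraries was at 289.7, 219 and 428 CPM. Early WT library 4 and late WT library 1 stood above their groups. In the *S6K1/S6K2* set it was at 288, 324, 399 and 363 CPM in early WT and 244, 298, 368 and 268 CPM in late WT libraries. *Hmga2* in late DKO libraries was at 239, 377 and 218 CPM. The groups overlapped in all comparisons and none passed, with a log2 FC with passage in WT cells of −0.77 in the *S6K1* set and −0.19 in the other (edgeR adjusted *P* of 0.162 and 0.52). Without early WT libraries 2 and 4 the first was −0.24 (edgeR adjusted *P* = 0.605).

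*Cbx5* (ENSMUSG00000009575.14; chromosome 15, 103191546 to 103239904) encodes HP1α, which binds methylated histone H3 in heterochromatin. It was at 92.4, 122, 104.6 and 135 CPM in early WT and 90.3, 83.5, 89.9 and 104 CPM in late WT libraries of the *S6K1* set. *Cbx5* in late KO libraries was at 87.9, 78.9 and 80.7 CPM. In the other set it was at 96.8, 94.8, 87.7 and 77.9 CPM in early WT and 66.6, 72.4, 62.8 and 74.0 CPM in late WT libraries. *Cbx5* in late DKO libraries was at 59.1, 76.6 and 79.8 CPM. Late KO libraries were below all early WT libraries (log2 FC −0.47 ± 0.15, edgeR adjusted *P* = 0.0671; −0.26 without early WT libraries 2 and 4). Late WT libraries of the *S6K1/S6K2* set were below all early ones (log2 FC −0.34 ± 0.12, edgeR adjusted *P* = 0.0814). No comparison passed. Between late DKO and late WT MEFs the log2 FC was 0.04 (2 standard errors either side, −0.22 to 0.31).

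Counted by overlap alone, 4 of the 10 genes separated late from early WT libraries of the *S6K1/S6K2* set (*Lmnb2*, *Lbr*, *Hmga1* and *Cbx5*, where 20.3% of all genes did). Likewise 4 separated late DKO from late WT libraries (*Lmnb1*, *Hmgb2*, *Hmga1* and *Ezh2*, against 16.4% of all genes) and 6 separated late DKO from early WT libraries (30.5% of all genes). In the *S6K1* set the numbers were 0 (18.3% of all genes), 0 (13.2%) and 6 (27.2%). Every gene so separated was lower in the later or mutant group.

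None of the 10 genes passed a test of the difference between the sets, either in the effect of passage (0.712% of all 14886 genes tested passed, edgeR interaction term) or in that of genotype (0.00672% of all genes). At an unadjusted *P* value under 0.05 there was 1 in each, *Hmgb1* for passage (9.55% of all genes) and *Hmga1* for genotype (10.9% of all genes). DESeq2 called none in either (1.49% and 0.437% of all genes). The calls in the *S6K1/S6K2* set are therefore not shown to be absent from the *S6K1* set.

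Around the members, wider lists of the same functions were counted. Of all genes, 6.96% were called higher and 5.97% lower with passage in WT cells of the *S6K1* set, and 5.93% higher and 5.24% lower between late KO and early WT MEFs. In the *S6K1/S6K2* set 8.28% were called higher and 4.89% lower with passage, 0.821% and 3.95% between late DKO and late WT MEFs, and 9.34% and 8.92% between late DKO and early WT MEFs. Of the 22 tested genes of the lamina and inner nuclear membrane, members included, 2 were lower and none higher in late DKO than in late WT cells. These were *Lmnb1* and *Tmpo*, the gene of the lamin-binding protein LAP2 (29.7 against 48.6 CPM, log2 FC −0.72, edgeR adjusted *P* = 0.0443). Against early WT MEFs 7 were lower and 1 higher in late DKO MEFs. Among them were *Nrm*, which encodes the membrane protein nurim (1.67 against 6.14 CPM, log2 FC −1.88, edgeR adjusted *P* = 0.0119) and *Tmpo* (log2 FC −1.12, edgeR adjusted *P* = 0.00241). *Fnta*, the farnesyltransferase subunit that helps process lamins, was higher (142 against 92.5 CPM, log2 FC 0.64, edgeR adjusted *P* = 0.00394), and it had also risen with passage in WT cells (116 CPM, log2 FC 0.36, edgeR adjusted *P* = 0.0457). *Sun2* of the *S6K1* set, which links the lamina to the cytoskeleton, rose with passage in WT MEFs (77.8 against 47.7 CPM, log2 FC 0.70, edgeR adjusted *P* = 0.00398). It was the gene of the list whose effect of passage differed between the sets (difference −0.73, adjusted *P* = 0.043, edgeR interaction term), named after its value was seen. Between late KO and early WT MEFs, 4 genes of the list were lower and 1 higher, with *Syne2*, another linker gene, at 2.94 against 11.9 CPM, *Tmpo* at 42.7 against 86.6 CPM and *Sun2* at 77.0 against 47.7 CPM. Without early WT libraries 2 and 4, 1 was lower and none higher.

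Of the 9 HMG genes, 1 was lower (*Hmga1*) and 1 higher (*Hmgn5*, a nucleosome-binding HMG gene, log2 FC 0.76, edgeR adjusted *P* = 0.0481; named after its value was seen) with passage in WT cells of the *S6K1/S6K2* set. In late DKO MEFs 2 were lower than in late WT MEFs (*Hmgb2* and *Hmga1*) and 4 were lower than in early WT MEFs, with *Hmgb3* at 3.45 against 7.88 CPM (log2 FC −1.17, edgeR adjusted *P* = 0.0343). Of the 17 genes of HP1 and histone H3 lysine 9 methylation, none passed between late DKO and late WT MEFs (edgeR, 2 at an unadjusted *P* value under 0.05). Against early WT MEFs 4 were lower, led by the methyltransferase genes *Suv39h2* (1.44 against 4.06 CPM, log2 FC −1.49, edgeR adjusted *P* = 0.0156) and *Suv39h1* (11.6 against 20.4 CPM, log2 FC −0.80, edgeR adjusted *P* = 0.0135). Among WT cells of the *S6K1* set, 2 of the 17 genes fell with passage, beside 5.97% of all genes. They were the chromatin remodeller gene *Atrx* (101 against 214 CPM, log2 FC −1.08, edgeR adjusted *P* = 0.0312) and the variant histone gene *Macroh2a2* (25.6 against 45.7 CPM, log2 FC −0.84, edgeR adjusted *P* = 0.0193). In late KO against early WT MEFs 2 were lower, *Macroh2a2* (21.5 against 45.7 CPM) and the methyltransferase gene *Ehmt1* (25.6 against 39.5 CPM). No gene of this list, nor of the HMG list, passed in either comparison without early WT libraries 2 and 4.

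Of the 18 Polycomb genes, *Ezh2* was the call between late DKO and late WT MEFs, in the downward direction. In late DKO against early WT MEFs 3 genes were lower and 2 higher. Beside *Ezh2*, the lower ones were *Phf19* (1.63 against 3.47 CPM, log2 FC −1.07, edgeR adjusted *P* = 0.031) and *Mtf2* (21.9 against 30.8 CPM, log2 FC −0.48, edgeR adjusted *P* = 0.0136), which encode accessory proteins of Polycomb repressive complex 2. *Bmi1*, a gene of Polycomb repressive complex 1 that represses *Cdkn2a*, rose with passage in WT cells of the *S6K1/S6K2* set (57.3 against 40.8 CPM, log2 FC 0.52, edgeR adjusted *P* = 0.0179). It was also higher in late DKO than in early WT MEFs (70.6 CPM, log2 FC 0.81, edgeR adjusted *P* = 0.00232), opposite to *Ezh2*. *Kdm6b*, which encodes a demethylase of the mark that EZH2 sets, fell with passage in WT cells of the *S6K1* set (log2 FC −1.16, edgeR adjusted *P* = 0.0136). There *Cbx8* and the *Ezh2* paralog *Ezh1* rose (log2 fold changes of 0.69 and 0.53, adjusted *P* of 0.0163 and 0.0404, edgeR), and without early WT libraries 2 and 4 the count was 1 higher and none lower. Between late KO and early WT MEFs 3 genes of the list were lower and 1 higher, and none without those libraries. Beside *Ezh2*, these were the demethylase genes *Kdm6b* (17.9 against 35.8 CPM) and *Kdm6a* (9.65 against 18.8 CPM), and *Cbx8* was at 9.57 against 6.16 CPM. Of 6 tested genes of the let-7 pathway and its targets, *Hmga2* passed in no comparison. *Igf2bp2*, an RNA-binding protein gene, fell with passage in WT cells of both sets (log2 FC of −0.68 and −0.32, edgeR adjusted *P* of 0.011 and 0.0474). *Igf2bp1*, of the same family, fell with passage in the *S6K1/S6K2* set (21.2 against 35.0 CPM, log2 FC −0.69, edgeR adjusted *P* = 0.0183). Both were also lower in late DKO than in early WT MEFs (log2 FC of −0.39 for *Igf2bp2* and −0.67 for *Igf2bp1*, adjusted *P* of 0.0249 and 0.0246, edgeR). Without early WT libraries 2 and 4 no gene of this list passed in the *S6K1* set.

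**Figure D4:**
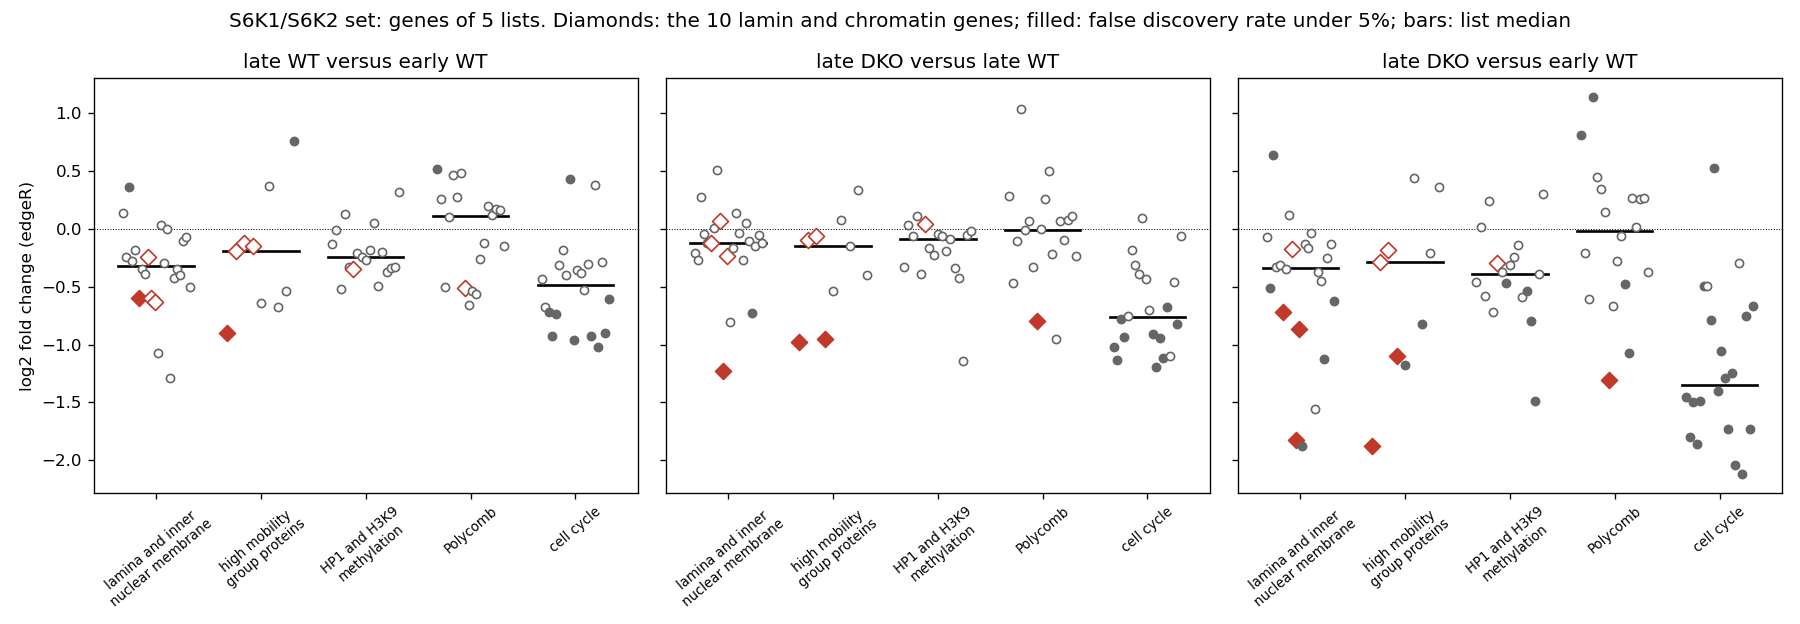
Log2 fold changes of the tested genes of 5 lists in the *S6K1/S6K2* set. The x axis gives the list and the y axis the log2 FC from edgeR in the comparison above each panel; diamonds are the 10 lamin and chromatin genes, circles the other genes of the lists, filled symbols passed an adjusted *P* value of 0.05, and bars are list medians. The cell cycle list has medians of −0.48, −0.76 and −1.35 in the 3 panels, and the Polycomb list 0.11, −0.01 and −0.02.

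Genes of the cell cycle moved beside the members. Of 20 such genes, 8 were lower and 1 higher with passage in WT cells of the *S6K1/S6K2* set. In late DKO MEFs 10 were lower than in late WT, and 17 were lower and 1 higher than in early WT MEFs. Their summed level was 653 to 942 CPM in early WT, 551 to 641 CPM in late WT and 384 to 405 CPM in late DKO libraries. Falls with passage included those of the mitotic kinase gene *Plk1* (8.84 against 18.3 CPM) and the transcription factor gene *Foxm1* (6.40 against 12.7 CPM). *Plk1* was at 4.14 CPM in late DKO MEFs (log2 FC −2.12 against early WT, edgeR adjusted *P* = 0.00117), and *E2f1*, a transcription factor of the G1/S transition, was higher than in early WT MEFs (51.4 against 36.1 CPM). *Mki67*, the proliferation marker, was at 17.0 CPM in late DKO and 70.6 CPM in early WT MEFs (log2 FC −2.04, edgeR adjusted *P* = 0.000371). *Mcm5*, a gene of the replicative helicase, was at 7.79 CPM in late DKO and 17.7 CPM in late WT MEFs (log2 FC −1.20, edgeR adjusted *P* = 0.0156), and the spindle checkpoint gene *Bub1* at 5.35 and 11.6 CPM. None of the 20 passed in the *S6K1* set with passage in WT cells or between late KO and late WT cells (edgeR, 2 and 1 at an unadjusted *P* value under 0.05). Against early WT cells 2 were lower in late KO cells, with *Top2a* at 66.4 against 168 CPM and *Mki67* at 45.1 against 96.3 CPM. Neither passed without early WT libraries 2 and 4. *Hmgb2* and *Ezh2* are expressed mostly in dividing cells as a matter of background. The part of the cell cycle in their levels, or in that of *Lmnb1*, was not tested. Correlations within groups used deviations of log2 CPM from the group mean over 22 libraries that share their scaling, as a description. The mean of the cell cycle list had a Pearson correlation of 0.78 with *Lmnb1*, 0.66 with *Lmnb2*, 0.50 with *Lbr* and 0.46 with *Hmgb2*. It was 0.38 with *Hmga1*, 0.35 with *Cbx5*, 0.16 with *Lmna*, 0.12 with *Ezh2*, −0.00063 with *Hmgb1* and −0.53 with *Hmga2*. For some genes the sets differed, with −0.12 in the *S6K1* set and 0.53 in the other for *Hmgb1*. In the same order the values were 0.16 and 0.73 for *Cbx5*, and −0.12 and 0.64 for *Lmna*.

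The genes whose levels were most like a member's were sought over all 22 libraries among 14886 tested genes, by Pearson correlation of log2 CPM, which includes the differences between groups. For *Lmnb1* they were *Tmpo*, *Whsc1*, a histone methyltransferase gene, and *Bub1*, a gene of the spindle checkpoint, each at 0.94. For *Lmna* they were *Tab1* (0.84), *Nmral1* (0.81) and *Kctd17* (0.78), and for *Hmga2* they were *Rrbp1* (0.84), *Prmt5* (0.82) and *Sfxn1* (0.82). The pairs of members most alike were *Hmgb2* and *Ezh2* (0.89), *Cbx5* and *Ezh2* (0.86) and *Lbr* and *Ezh2* (0.86), and the least alike were *Hmgb1* and *Hmga1* (−0.15). Within groups, *Hmgb1* and *Hmga1* had a correlation of −0.75 in the *S6K1* set and 0.29 in the *S6K1/S6K2* set (11 libraries each), and in the first early WT libraries 2 and 4 were both high in *Hmgb1* and low in *Hmga1*.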

How the data were processed

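Libraries were made with a stranded mRNA kit and sequenced single-end on an Illumina instrument. The authors deposited raw read counts per gene, which were used as deposited. The study's methods name TopHat, the mouse build mm9 and HTSeq, whereas the submitters' processing notes name CASAVA, STAR 2.7.1a, mm10 and DESeq2 1.28.1; of the 55401 gene identifiers 22812 are absent from an mm9 annotation, and the annotation release and the strand setting of the counting are not given in the sources used here. Positions and promoters are from RefSeq GRCm38.p6, and exon lengths from an annotation of the older build. Symbols were found for 32589 identifiers, which hold 97.0% of the counts. Pseudogenes named after *Hmgb1* and copies of *Hmga1* had at most 16 counts in any library.

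Counts were tested in R 4.3.3 with edgeR 4.0.16 (filterByExpr, TMM, robust quasi-likelihood test, Benjamini-Hochberg adjustment) on the 3 groups of each set, and differences between sets on all 22 libraries. The standard error was taken from the F statistic. Log2 CPM used a prior count of 2. Simulated counts in which 200 genes had been changed were used to check edgeR and DESeq2. They covered late against early WT MEFs of the *S6K1* set and no other comparison. Alternatives were DESeq2 1.42.0, RLE scaling, no filter on low counts, other groups in the fit, a Y-linked covariate and leaving out each library. Scaling by library size alone and leaving out early WT libraries 2 and 4 of the *S6K1* set were chosen after seeing the data. The 10 genes and the lists were chosen with earlier results of these data known. Of the wider lists, the genes named were, per comparison, the 2 largest rises and the 2 largest falls that passed without overlap of the groups, at a mean level of 1 CPM or more. For *Lmnb1*, *Lmna* and *Hmga2* the 3 most correlated genes were named. *Ras*-transduced MEFs and livers were not analysed here.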

Additional observations from a re-analysis of the deposited data

Results flagged for a closer look

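The levels of the 10 genes were screened for a library far from the other 3 in each of the 40 groups of 4 libraries (10 genes in 4 groups), by the gap to the nearest library over the range of the group against Dixon's 95% critical value, a screen that chance alone trips in about 1 of 20 groups. In 4 of them a library stood apart, all in the *S6K1* set. *Lmnb1* was at 37.0 CPM in early WT library 3 (gap over range 0.895), where the other early libraries were close together, and at 44.5 CPM in late WT library 4 (0.850), above every early WT library. *Hmga2* was at 1006 CPM in early WT library 4 (0.894) and at 457 CPM in late WT library 1 (0.950). Without late WT library 4 of the *S6K1* set the log2 fold change of *Lmnb1* with passage in WT cells was −0.63 (adjusted *P* = 0.0951, edgeR) against −0.28 with it, and neither passed.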

How the results depend on the processing

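The number of the 10 genes called changed with the setting, and so did the share of all genes called. With passage in WT cells of the *S6K1* set it was 0 (12.9% of all genes), but 3 with DESeq2 (18.8%), 3 with all 6 groups in the fit (17.2%), 4 with the Y-linked covariate (23.1%), 1 with scaling by library size alone (11.2%) and 0 to 2 without 1 library. Between late KO and early WT MEFs it was 5, but 2 with the Y-linked covariate (8.81%), 0 without early WT libraries 2 and 4 and 0 to 6 without 1 library. With passage in WT cells of the *S6K1/S6K2* set it was 2, but 5 with DESeq2 (19.8%) and 1 to 4 without 1 library. Between late DKO and late WT MEFs it was 4, but 2 with only the 2 groups in the fit (3.36%), 1 with all 6 groups (4.50%), 2 with scaling by library size alone (4.50%) and 1 to 4 without 1 library. Between late DKO and early WT MEFs it was 6, and 4 to 6 without 1 library. The causes were not tested. No paired analysis was possible because the labels give the groups no shared replicate numbers.

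Directions changed for log2 fold changes that had not passed. In the *S6K1* set the Y-linked covariate nearly coincides with genotype among the late libraries and cannot be separated from it. With the Y-linked covariate, late KO against late WT MEFs gave 0.0053 for *Lbr*, 0.44 for *Hmgb1*, 0.073 for *Hmgb2*, −0.22 for *Hmga1*, 0.40 for *Hmga2*, 0.0052 for *Cbx5* and 0.20 for *Ezh2*, *Hmga1* gave 0.13 between late and early WT and −0.090 between late KO and early WT MEFs, *Hmga2* gave 0.0051 between late DKO and late WT MEFs, and the genotype effect differed between the sets by −0.26 for *Lbr* and −0.20 for *Hmgb1*. Without early WT libraries 2 and 4, *Lmna* gave −0.048 between late and early WT and *Hmga1* −0.36 between late KO and early WT MEFs, and the passage effect differed by 0.092 for *Hmga1* and −0.30 for *Ezh2*. Without 1 library, ranges crossed 0 in the *S6K1* set for late against early WT MEFs (*Lmna* −0.037 to 0.071, *Hmga1* −0.70 to 0.081), late KO against late WT MEFs (*Lmna* −0.096 to 0.0069, *Lmnb2* −0.35 to 0.036, *Hmga2* −0.34 to 0.17) and late KO against early WT MEFs (*Lmna* −0.077 to 0.034, *Hmga1* −0.039 to 0.73). They did so for late DKO against late WT MEFs (*Lbr* −0.21 to 0.053, *Hmgb1* −0.12 to 0.028, *Hmga2* −0.36 to 0.052, *Cbx5* −0.036 to 0.18), for the difference in the passage effect (*Lmnb1* −0.51 to 0.00024, *Cbx5* −0.16 to 0.018) and for that in the genotype effect (*Lmnb2* −0.24 to 0.12, *Lbr* −0.0025 to 0.32, *Hmgb2* −0.55 to 0.039, *Hmga2* −0.31 to 0.27). Over all genes, calls between late KO and late WT MEFs were 6 with edgeR and 266 with DESeq2, and between late DKO and late WT MEFs 686 and 1206.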
